A study of Mus musculus with 8 samples.

Results

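The IFIT cluster genes are the interferon-induced proteins with tetratricopeptide repeats, which lie side by side on mouse chromosome 19. They were taken by gene symbol (Ifit1, Ifit2, Ifit3, Ifit3b, Ifit1bl1 and Ifit1bl2), which gave 6 of the 55536 genes counted, and no other Ifit symbol was in the count table. All 6 also passed the filter on low counts that left 15998 genes for testing. RNA was sequenced from 8 liver tumors, each grown from HCA-1 cells, a mouse hepatocellular carcinoma line, implanted under the liver capsule of male C3H mice. On day 17 the mice received 1 intravenous injection of saline (Control, 4 tumors) or of vesicles free of phospholipid that carried imiquimod, which activates the receptor TLR7 (IMQNP, 4 tumors), and tumors were taken 3 h later. The sample labels give the mice as 6 to 8 weeks old, whereas the study's methods give a younger range. Every tumor came from the same cell line, and tumor replicates are called by the number in their label (Control 1, 3, 4 and 5, and IMQNP 1, 2, 3 and 4). No label says whether each tumor came from a separate mouse, so the p-values measure the spread between these tumors.

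IFIT proteins are cytoplasmic antiviral proteins that are almost absent from resting cells and are made in large amounts after type I interferon. Interferon alpha or beta binds the receptor chains encoded by Ifnar1 and Ifnar2, and the transcription factor complex ISGF3, to which STAT2 and IRF9 belong, then binds a DNA element, the interferon-stimulated response element (ISRE), near the start of the target gene. IFIT1 binds viral mRNA whose cap lacks ribose methylation, and members of the family also bind the translation initiation factor eIF3.

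Coordinates are of the genome build GRCm38 with the GENCODE M21 annotation. Ifit2 (chr19:34550694-34576419, plus strand) came first, followed by Ifit3 (chr19:34583531-34588731, plus strand) and Ifit1bl1 (chr19:34592891-34601956, minus strand). Then came Ifit3b (chr19:34607970-34613401, plus strand), Ifit1bl2 (chr19:34617049-34640743, minus strand) and Ifit1 (chr19:34640871-34650009, plus strand). All 6 were annotated as protein coding, and none shared an exon base with another gene. Ifit3 and Ifit3b are close copies of each other. Of the 50-base words in the longest transcript, 51.2% in Ifit3 and 45.0% in Ifit3b occurred in another gene, nearly all of them in the partner. The share was 9.34% for Ifit1bl2, 7.13% for Ifit1, 6.60% for Ifit1bl1 and 0% for Ifit2. How reads that fit more than 1 gene were counted is not given in the sources used here, so the split between Ifit3 and Ifit3b is uncertain. The same limit applies to Ifit1bl2, which had far fewer counts than Ifit1, the gene in which 5.55% of its words occurred.

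The bases just before the start sites are shown because the 6 genes moved together, and 5 of the 6 carried ISRE-like letters there, Ifit2 being the exception. The motif searched was GAAA, any 2 bases and GAAA, on either strand, in RefSeq windows of GRCm38.p6 that run from 250 bases before to 50 bases after a start. Capitals mark each match, which reads as its complement, TTTC, 2 bases and TTTC, on the strand printed. All 5 sequences are from RefSeq and end before the annotated start. Ifit1 and Ifit1bl2 start back to back, and the first sequence is the whole stretch of 127 bases between their annotated starts, on the strand of Ifit1.
Ifit1 and Ifit1bl2 (chr19:34640744-34640870, plus strand): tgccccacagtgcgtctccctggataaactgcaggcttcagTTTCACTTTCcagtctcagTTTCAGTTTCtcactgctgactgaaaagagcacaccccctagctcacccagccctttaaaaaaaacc
Ifit3 (chr19:34583353-34583528, plus strand): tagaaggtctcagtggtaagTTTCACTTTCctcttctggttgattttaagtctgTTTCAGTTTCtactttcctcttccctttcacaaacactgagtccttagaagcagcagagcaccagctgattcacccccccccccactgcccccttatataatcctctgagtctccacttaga
Ifit3b (chr19:34607749-34607956, plus strand): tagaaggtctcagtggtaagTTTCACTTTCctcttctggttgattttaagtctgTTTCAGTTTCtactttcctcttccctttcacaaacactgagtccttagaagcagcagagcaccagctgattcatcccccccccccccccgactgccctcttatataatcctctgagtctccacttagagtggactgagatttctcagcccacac
Ifit1bl1 (chr19:34601969-34602148, minus strand): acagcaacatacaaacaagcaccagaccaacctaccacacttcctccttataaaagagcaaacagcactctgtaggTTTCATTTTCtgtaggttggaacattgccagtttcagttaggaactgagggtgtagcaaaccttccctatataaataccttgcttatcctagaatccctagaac
Ifit2 (chr19:34550574-34550693, plus strand): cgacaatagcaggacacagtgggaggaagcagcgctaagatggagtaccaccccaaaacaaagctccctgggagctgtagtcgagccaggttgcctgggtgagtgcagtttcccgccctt

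The motif was found in the windows of 5 of the 6 genes, against 3.99% of the 27025 genes in the RefSeq promoter table. Ifit1, Ifit1bl2, Ifit3 and Ifit3b each held 2 matches in 1 window, which 0.266% of all genes did. Distances are counted from the RefSeq starts. These differ from the annotated starts above for Ifit1 (RefSeq chr19:34640889), Ifit3 (RefSeq chr19:34583529) and Ifit3b (RefSeq chr19:34607957), among others. The same 2 matches served Ifit1 and Ifit1bl2, beginning 104 and 85 bases before the Ifit1 start and 70 and 51 bases before the Ifit1bl2 start. Ifit3 and Ifit3b carried the same 2 matches in the same order, beginning 156 and 122 bases before the Ifit3 start and 188 and 154 bases before the Ifit3b start. Before their starts, the Ifit3 and Ifit3b windows aligned over 224 columns with 96.4% identity. Ifit1bl1 had 1 match before each of its 2 RefSeq starts, 104 and 23 bases away. These letters were not in either window of Ifit2, which says nothing about what binds there. A stricter motif (AGTTTC, any 2 bases and TTTC) was found in 4 of the 6 genes, Ifit1, Ifit1bl2, Ifit3 and Ifit3b, against 0.303% of all genes. By its letters, each match of the stricter motif must hold a match of the shorter one.

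**Figure D1:**
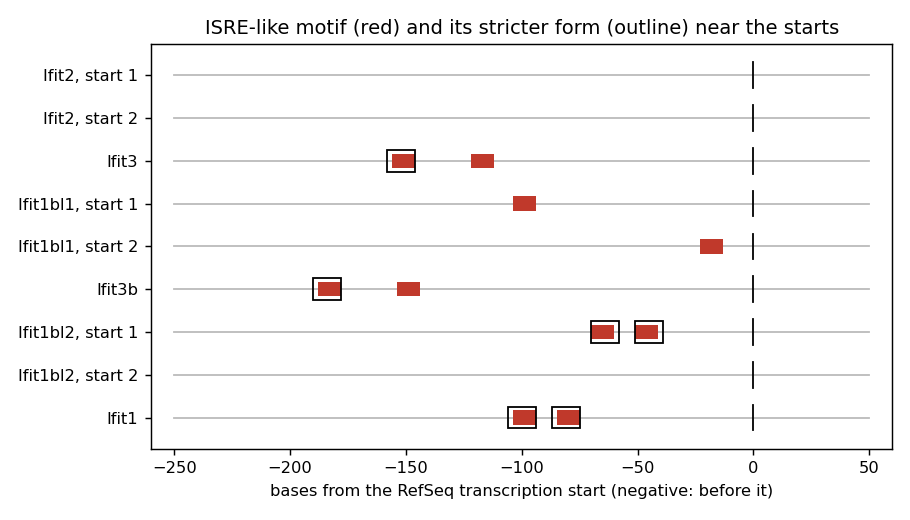
Each row is 1 RefSeq start of an IFIT gene (vertical tick at 0), drawn in the direction of transcription, with the x axis in bases from the start. Red boxes are matches to the ISRE-like motif and outlines are matches to its stricter form; Ifit2 has none, and Ifit1bl2 has none at its second start.

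All 6 IFIT genes rose in the IMQNP tumors, by 13.6- to 79.4-fold, and for all 6 the lowest IMQNP tumor was above the highest Control tumor. Over all 15998 tested genes, 2.26% were called higher, 0.200% were called lower, and 6.00% had every IMQNP tumor above every Control tumor. Calling needed both a log2 fold change larger than 1 in size and an adjusted p (Benjamini-Hochberg, from the quasi-likelihood test of edgeR) below 0.05. Levels are normalized CPM, which are counts scaled to a common library size with the TMM factors of edgeR, and means are given ± SD (n = 4). In bulk tumors, more cells that express a gene and more RNA per cell cannot be told apart.

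Ifit1, which encodes the cap-binding member, was at 43.5, 45.1, 20.1 and 40.5 CPM in Control 1, 3, 4 and 5, and at 1407, 3958, 2209 and 2337 CPM in IMQNP 1, 2, 3 and 4. Control 4 was the low tumor among the controls and IMQNP 2 the high tumor after treatment, and the groups were far apart. The mean was 37.3 ± 11.6 CPM in Control and 2478 ± 1069 CPM in IMQNP tumors, and the log2 fold change was 6.05 (SE 0.45, adjusted p = 0.000485, edgeR).

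Ifit3 was at 55.4, 53.2, 31.7 and 61.2 CPM in the Control tumors and at 1477, 3209, 1920 and 1836 CPM in the IMQNP tumors. It followed the same pattern as Ifit1, with Control 4 lowest and IMQNP 2 highest. The log2 fold change was 5.39 (SE 0.36, adjusted p = 0.000485, edgeR), and the mean rose from 50.4 ± 12.9 to 2111 ± 757 CPM.

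Ifit3b, the near copy of Ifit3, was at 12.03, 11.0, 6.44 and 10.8 CPM in the Control tumors and at 322, 794, 433 and 471 CPM in the IMQNP tumors. Again Control 4 was lowest and IMQNP 2 highest, and no tumor of one group reached the other group. The log2 fold change was 5.65 (SE 0.37, adjusted p = 0.000485, edgeR). With the counts of Ifit3 and Ifit3b summed as 1 gene, a setting added after seeing the data that does not depend on how shared reads were split, the log2 fold change was 5.44 (SE 0.37, adjusted p = 0.000555, edgeR).

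Ifit2 was at 36.8, 40.3, 28.9 and 17.9 CPM in the Control tumors and at 491, 2208, 536 and 749 CPM in the IMQNP tumors. Control 5 was the lowest control here, and IMQNP 2 stood well above the other IMQNP tumors. The log2 fold change was 5.01 (SE 0.58, adjusted p = 0.00239, edgeR), and 4.24 (adjusted p = 0.00018) without IMQNP 2, which changed the fold by over 1.5 times.

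Ifit1bl1 and Ifit1bl2 (Ifit1-like 1 and 2) are mouse relatives of Ifit1 about whose function less is known. Ifit1bl1 was at 1.75, 1.48, 2.79 and 0.760 CPM in the Control tumors and at 63.6, 322, 59.8 and 98.0 CPM in the IMQNP tumors. Control 4, the lowest control for Ifit1, Ifit3 and Ifit3b, was the highest control for Ifit1bl1, and IMQNP 2 was again the highest tumor. The log2 fold change of 6.31 (SE 0.71, adjusted p = 0.00208, edgeR) was the largest of the 6 with all 8 tumors and fell to 5.41 (adjusted p = 0.000171) without IMQNP 2. That value was below the 5.71 of Ifit1 in the same fit, and without Control 5 the values were 6.08 for Ifit1bl1 and 6.09 for Ifit1.

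Ifit1bl2 was the scarcest, with 11, 9, 7 and 5 counts in the Control tumors and 53, 128, 59 and 76 counts in the IMQNP tumors. In CPM this was 0.507, 0.316, 0.301 and 0.271 in the Control tumors and 2.92, 8.94, 3.29 and 4.19 in the IMQNP tumors. Every Control value was above the level of 3 counts, which was 0.105 to 0.163 CPM in these tumors and covers counting error only. IMQNP 2 was again highest, and the groups did not overlap. The log2 fold change was 3.77 (SE 0.46, adjusted p = 0.00286, edgeR), the smallest of the 6. How far reads shared with Ifit1, which had 25500 to 56651 counts in the IMQNP tumors, add to the Ifit1bl2 counts was not tested. This also limits the ratios of Ifit1bl2 to the other members below.

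**Figure D2:**
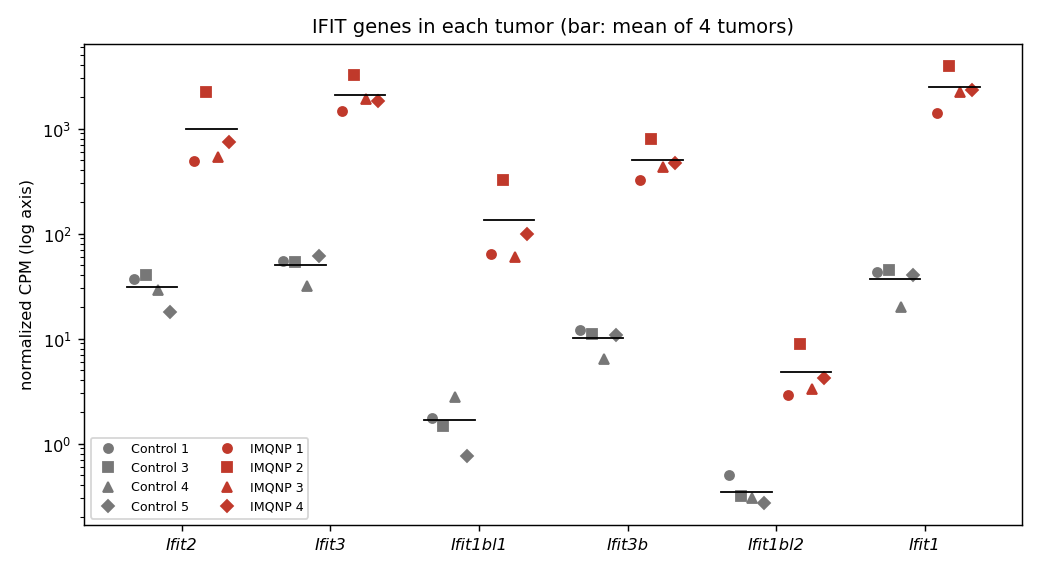
Normalized CPM of each IFIT gene (log axis) in each of the 8 tumors, with genes in chromosome order, gray symbols for Control, red for IMQNP and a bar at the mean of 4 tumors. For every gene the red symbols lie above the gray ones, and IMQNP 2 (red square) is highest.

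Among the 15998 tested genes ordered by log2 fold change, Ifit1bl1 stood at place 3, Ifit1 at 5, Ifit3b at 7, Ifit3 at 10, Ifit2 at 20 and Ifit1bl2 at 45. Their median log2 fold change was 5.52, beside -0.03 over all tested genes. All 6 stayed called in each of the 8 fits that left out 1 tumor. Together their share of all counts was 0.00934 to 0.0156% among Control tumors and 0.372 to 0.884% among IMQNP tumors.

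**Figure D3:**
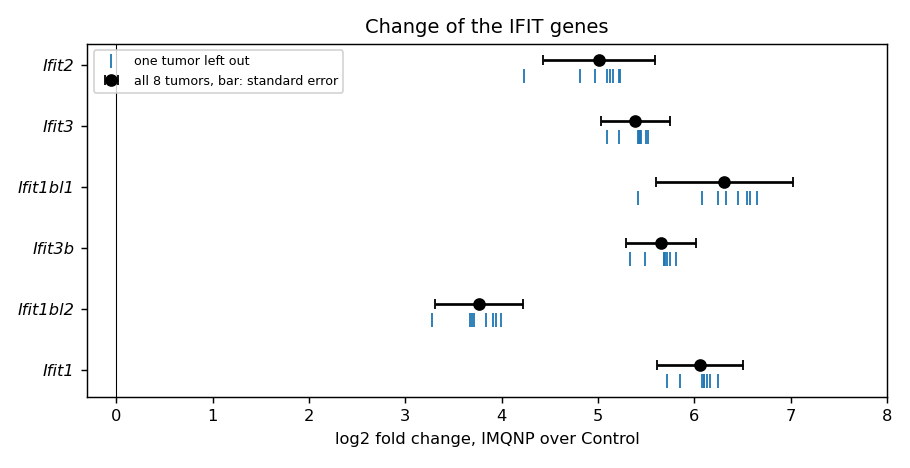
Log2 fold change of each IFIT gene in IMQNP over Control tumors, as a black point with its standard error from all 8 tumors, and as blue ticks from the 8 fits that each left out 1 tumor. All values lie between 3.27 and 6.65, and the lowest tick of each gene is the fit without IMQNP 2.

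IMQNP 2 was the highest IMQNP tumor for 6 of 6 genes, and IMQNP 1 was the lowest for 5 of 6, Ifit1bl1 being lowest in IMQNP 3. The excess of IMQNP 2 was uneven across the cluster. It was 4.37 times the mean of the other 3 IMQNP tumors for Ifit1bl1 and 3.73 times for Ifit2, against 2.58 times for Ifit1bl2 and 1.84 to 1.99 times for Ifit3, Ifit3b and Ifit1. IMQNP 2 also had the highest share of mitochondrial counts (6.65%, against 1.37 to 5.22% in the other 7 tumors) and the lowest TMM factor (0.843, against 0.981 to 1.09). The summed level of 5 neutrophil markers was 182 CPM per kb in IMQNP 2, against 37.8 to 53.3 in the other IMQNP tumors and 10.6 to 76.3 in the Control tumors. The sums of NK cell markers (6.999 CPM per kb, against 1.75 to 3.65 in the other 7 tumors), B cell markers (8.29, against 0.542 to 2.98) and plasmacytoid dendritic cell markers (12.3, against 6.08 to 9.75) were highest in IMQNP 2 too. By a smaller margin, so were those of T cell (45.5, against 19.1 to 44.7), macrophage (599.5, against 314 to 575) and hepatocyte markers (21388, against 2824 to 19859). Endothelial markers were highest in Control 4 and fibroblast markers in IMQNP 1. Single markers differed. Of the NK cell markers, Eomes and Gzma were highest in IMQNP 2, Ncr1 in Control 4 and Klrb1c in Control 5. Of the plasmacytoid dendritic cell markers, Ccr9, Tcf4 and Klk1 were highest in IMQNP 2, Siglech in Control 3 and Cox6a2 in IMQNP 4. The part of these differences in the IFIT levels of IMQNP 2 was not tested.

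Levels of different genes were compared per length, as CPM per kb of annotated exon. In the Control tumors Ifit3 was highest at 28.9 ± 7.39 CPM per kb, before Ifit1 at 14.0 ± 4.37, Ifit2 at 7.89 ± 2.53, Ifit3b at 5.02 ± 1.23, Ifit1bl1 at 0.750 ± 0.373 and Ifit1bl2 at 0.104 ± 0.0318. In the IMQNP tumors the order of the means was the same, with Ifit3 at 1209 ± 434 CPM per kb, Ifit1 at 933 ± 403, Ifit2 at 254 ± 208, Ifit3b at 253 ± 101, Ifit1bl1 at 60.1 ± 55.5 and Ifit1bl2 at 1.44 ± 0.828. Ifit3 was above Ifit1 in all 8 tumors, and Ifit1bl1 came before Ifit1bl2 at the end of the order in all 8. The ranges of Ifit1 and Ifit2 overlapped in both groups, and those of Ifit3 and Ifit1 in the IMQNP tumors. Ifit2 and Ifit3b did not differ beyond their spread in either group. Ifit2 was the higher of them in 3 of 4 Control tumors but in only 1 of 4 IMQNP tumors, IMQNP 2, without which Ifit3b came before Ifit2. With the length limited to 50-base words found in no other gene, a setting added after seeing the data, Ifit3b likewise preceded Ifit2 in both groups. By mean level per kb, Ifit3 moved from place 1640 to place 27 among the tested genes, Ifit1 from 3439 to 42, Ifit2 from 5611 to 210 and Ifit3b from 7522 to 212. Ifit1bl1 went from place 13280 to 863, while Ifit1bl2 stayed far down, from 15836 to 11674.

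The makeup of the family total changed less than its size. Ifit3 made up 47.7 to 57.8% of the summed CPM per kb of the 6 genes in Control tumors and 41.5 to 50.04% in IMQNP tumors. Ifit3b stayed near the same share, 8.56 to 9.34% and 8.95 to 9.81%. Ifit1 took 20.1 to 26.5% in Control tumors and 31.3 to 36.6% in IMQNP tumors, and these ranges did not overlap. Ifit1bl2 was at 0.133 to 0.237% in Control tumors and at 0.0423 to 0.0599% in IMQNP tumors, also without overlap. Within each group, the shares of Ifit1bl1 and Ifit2 were highest in the tumor with the most hepatocyte marker RNA. In Control 4, whose 9 hepatocyte and hepatocellular carcinoma markers summed to 19859 CPM per kb against 2824 to 8409 in the other Control tumors, Ifit1bl1 took 3.28% of the family total (others 0.554 to 1.20%) and Ifit2 took 19.5% (others 7.52 to 16.03%). In IMQNP 2, at 21388 CPM per kb against 3971 to 6716 in the other IMQNP tumors, Ifit1bl1 took 3.22% (others 1.14 to 1.81%) and Ifit2 took 12.7% (others 5.90 to 7.93%). Below the top tumor the order was not kept in the IMQNP group. IMQNP 3, next at 6716 CPM per kb, had the lowest shares of both, 1.14% for Ifit1bl1 and 5.90% for Ifit2. Among the Control tumors the share of Ifit2 followed the order of the marker sums, and that of Ifit1bl1 did not. The tumor markers on this list, Afp and Gpc3, did not share the high sum of IMQNP 2, where both were lowest of the 8 tumors. There Afp was at 2.096 CPM (others 4.85 to 6.08) and Gpc3 at 0.629 CPM (others 0.773 to 1.99). In Control 4, Afp was at 6.01 CPM and Gpc3 at 1.68 CPM, the highest Control value of Gpc3. These patterns were seen in the values and not tested.

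**Figure D4:**
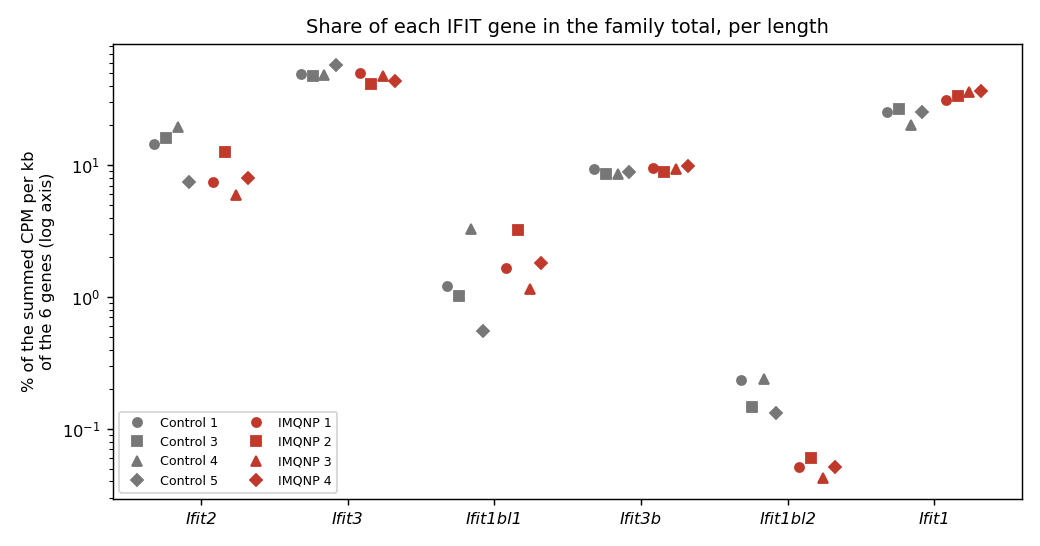
Share of each IFIT gene in the summed CPM per kb of the 6 genes (log axis, percent) in each tumor, gray for Control and red for IMQNP. The red symbols lie above the gray ones for Ifit1 and below them for Ifit1bl2, while the other 4 genes overlap.

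Whether the genes rose by different factors was asked within each tumor, from the log2 ratio of 1 gene to another (log2 CPM with a prior count of 2), for all 15 pairs. Each pair was compared between groups by a two-sided exact permutation test, whose smallest possible p with 4 against 4 tumors is 0.0286. That smallest p was reached by 8 of the 15 pairs, and after Benjamini-Hochberg adjustment over the 15 pairs the exact permutation test gave 0.0536 for each of them, so no pair passed 0.05. With a prior count of 0.5, the Ifit3 to Ifit3b pair joined them and 9 pairs passed at an adjusted p of 0.0476 in the same exact permutation test. limma on the ratios passed 9 pairs, the same 8 and Ifit2 to Ifit1 (adjusted p = 0.0213), while Ifit3 to Ifit3b did not pass (adjusted p = 0.232).

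Ifit1bl2 was in 5 of these 8 pairs, those with each other member, and its log2 fold change was the lower one in all of them. Ifit1 was 85.7, 143, 66.9 and 149 times as abundant as Ifit1bl2 in CPM in the Control tumors, and 481, 443, 671 and 558 times in the IMQNP tumors. The ratio was higher in every IMQNP tumor. The annotated starts of this pair flank the 127 bases printed above, and Ifit1bl2 has a second RefSeq start whose window held no match. The log2 ratio of Ifit1bl2 to Ifit1 changed by -2.68, and by -2.43 with a prior count of 0.5. It was -6.34 ± 0.54 in the Control tumors and -9.02 ± 0.26 in the IMQNP tumors (n = 4).

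Ifit1 also had a larger fold change than Ifit3 and Ifit3b, although neither pair passed 0.05 (adjusted p = 0.0536 for each, exact permutation test). Ifit3 was 1.27, 1.18, 1.58 and 1.51 times Ifit1 in CPM in the Control tumors and 1.05, 0.811, 0.869 and 0.786 times in the IMQNP tumors. The 2 groups did not overlap, and the log2 ratio changed by -0.66, with -0.75 to -0.59 when 1 tumor was left out. The ratio of Ifit3b to Ifit1 changed by -0.42 on the log2 scale, also without overlap. The eighth pair was Ifit2 and Ifit1bl1, where Ifit2 was 10.3 to 27.3 times Ifit1bl1 in CPM in Control tumors and 6.85 to 8.97 times in IMQNP tumors. Between the copies Ifit3 and Ifit3b the difference was small, at -0.23 on the log2 scale (exact permutation p = 0.0571, adjusted 0.0779), with Ifit3 at 4.61 to 5.70 times Ifit3b in Control tumors and 3.89 to 4.58 times in IMQNP tumors. Ifit1bl1 and Ifit1 differed by -0.025, within -0.40 to 0.52 when 1 tumor was left out (exact permutation p = 0.971).

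The pathway that leads to the IFIT genes was followed through 74 listed genes, of which 73 were in the count table and 54 had enough counts for a test. Of these 54, 14 were called higher and 0 lower, beside 2.26% and 0.200% of all tested genes. At an unadjusted p under 0.05, 0 of the 54 were lower in edgeR, and DESeq2's Wald test also called 0 lower. The median log2 fold change was 0.11 over the 54 genes, beside 5.52 for the 6 IFIT genes, and 11 of the 14 stayed called in every fit without 1 tumor.

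The ligands were scarce. Of 20 interferon genes listed, 12 had any count and only Ifng, the type II interferon, was tested, at 2.25 ± 0.996 CPM in Control and 3.50 ± 1.45 in IMQNP tumors (adjusted p = 0.629, edgeR). Ifnb1, interferon beta, had 2, 4, 0 and 2 counts in the Control tumors and 4, 7, 3 and 3 counts in the IMQNP tumors, too few for the test. In CPM every IMQNP tumor was above every Control tumor for Ifnb1. Most counts were near 3, so a difference was not detectable at this depth. Of the 9 receptor chains and kinases, 0 were called, with log2 fold changes of -0.46 to 0.93 and a lowest adjusted p of 0.262 (edgeR). Ifnar1 was at 60.1 ± 3.13 and 54.4 ± 6.08 CPM, and Ifnar2 at 50.5 ± 3.88 and 52.1 ± 7.58 CPM, in Control and IMQNP tumors respectively.

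Stat2 and Irf9, which encode parts of ISGF3, were called higher, by less than any IFIT gene. Stat2 was at 97.2, 119, 101 and 91.0 CPM in the Control tumors and at 430, 626, 506 and 504 CPM in the IMQNP tumors (log2 fold change 2.34, SE 0.19, adjusted p = 0.000499, edgeR). Irf9 rose by 1.26 on the log2 scale (SE 0.19, adjusted p = 0.0087, edgeR).

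Of 6 interferon regulatory factors, Irf7, which amplifies interferon production, rose by 2.94 on the log2 scale (SE 0.31, adjusted p = 0.00121, edgeR). Irf2 rose by 1.37 (adjusted p = 0.034, edgeR), and its call was kept in only 2 of 8 fits without 1 tumor, those without IMQNP 1 or IMQNP 2. Of 4 feedback genes, Isg15, a ubiquitin-like protein, rose by 5.03 (SE 0.41, adjusted p = 0.000552) and Usp18, which removes ISG15 and blocks the receptor, by 4.82 (SE 0.41, adjusted p = 0.000594, both edgeR). Socs1, an inhibitor of JAK kinases, rose by 2.74 (adjusted p = 0.0137, edgeR), with a log2 fold change of 2.64 and an adjusted p of 0.0627 without Control 1. Without IMQNP 2, its highest tumor, the log2 fold change of Socs1 was 2.06 (adjusted p = 0.00216, edgeR).

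Of 11 RNA sensors and adaptors, 7 rose. The largest changes were those of Dhx58 at 3.53, Ifih1 at 3.38, Zbp1 at 2.89 and Tlr3 at 2.79 on the log2 scale. All 4 sense double-stranded RNA or unusual nucleic acids, and their adjusted p were 0.0008 to 0.00522 (edgeR). Tlr7, the receptor for imiquimod, was at 7.33, 7.41, 9.54 and 5.92 CPM in the Control tumors and at 11.1, 25.01, 7.42 and 7.498 CPM in the IMQNP tumors. IMQNP 2, the highest tumor for the IFIT genes, was far above the rest, and the groups overlapped (adjusted p = 0.492, edgeR).

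Genes for the caps and the translation factor that IFIT proteins bind were not called. Of 7 cap methylation and cap-binding genes tested, 0 were called. Cmtr1, which adds the ribose methylation that hides a cap from IFIT1, was at 1.43, 1.93, 2.36 and 3.31 CPM in the Control tumors and at 4.25, 8.24, 5.91 and 6.06 CPM in the IMQNP tumors. The groups did not overlap, and the log2 fold change was 1.44 (SE 0.32), just short of the threshold (adjusted p = 0.0527, edgeR). Other normalizations, filters and tests on all 8 tumors called Cmtr1 higher in 6 alternatives, at adjusted p from 0.000973 in DESeq2's Wald test to 0.0498 with edgeR and the size factors of the authors' table. With 1 tumor left out it was called in 2 of 8 edgeR fits, those without Control 5 or IMQNP 1, and the adjusted p of the others was 0.106 to 0.172. Of the 14 eIF3 subunit genes, 0 were called, with log2 fold changes of -0.36 to 0.16 and a lowest adjusted p of 0.52 (edgeR).

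**Figure D5:**
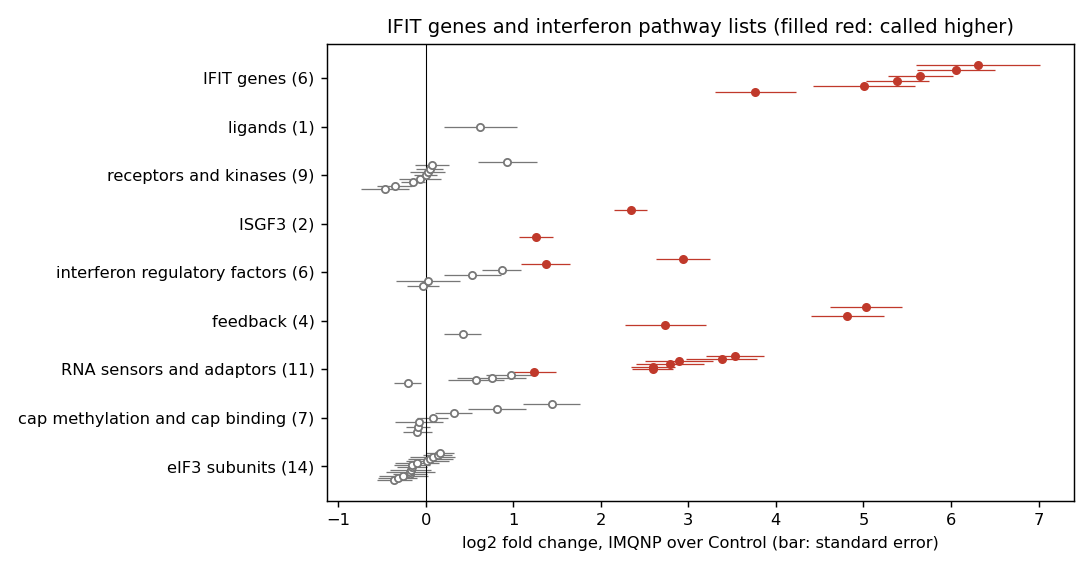
Log2 fold change in IMQNP over Control tumors (point) with its standard error (bar) for the 6 IFIT genes and the 54 tested pathway genes by list, with the number of genes in brackets and called genes in filled red. The IFIT genes lie between 3.77 and 6.31, and only Isg15 and Usp18 of the listed genes reach that range.

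The genes around the cluster were looked at to see how far along the chromosome the change ran. Within 200 kb there were 14 other genes, of which 5 had enough counts for a test. Of these 5, 1 was called higher and 0 lower, beside 2.26% and 0.200% of all tested genes. That gene was Ch25h, cholesterol 25-hydroxylase, itself an interferon-induced antiviral enzyme, 75.5 kb from Ifit2. It was at 6.41, 11.6, 7.52 and 8.63 CPM in the Control tumors and at 23.6, 81.6, 26.5 and 24.8 CPM in the IMQNP tumors, with IMQNP 2 far above the others. Its log2 fold change was 2.19 (SE 0.43, adjusted p = 0.0298, edgeR), and when any 1 Control tumor was left out the adjusted p was 0.0668 to 0.106, at log2 fold changes of 2.08 to 2.38. Without IMQNP 2 it was still called, at a log2 fold change of 1.53 (adjusted p = 0.00718, edgeR).

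The nearest tested neighbours did not pass the test. Lipa, lysosomal acid lipase, 23.2 kb from Ifit2, was at 141 ± 37.5 CPM in Control and 128 ± 5.47 in IMQNP tumors (adjusted p = 0.863, edgeR). Slc16a12, a membrane transporter 18.4 kb from Ifit1, was at 12.5 ± 10.4 and 6.56 ± 5.48 CPM (adjusted p = 0.674, edgeR), and for Pank1 and the noncoding Gm26902 the adjusted p were 0.771 and 0.844. A processed pseudogene inside Ifit1bl2, AC016791.2, had 1 count in all 8 tumors.

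The 5 tested genes most like the cluster were found by the root mean square difference between a gene's log2 CPM profile over the 8 tumors, centred on its mean, and the mean centred profile of the 6 IFIT genes. They were Mx2 at 0.297, Usp18 at 0.339, Cxcl10 at 0.361, Isg15 at 0.383 and Cxcl11 at 0.505, beside a median of 2.68 over all other tested genes. The IFIT genes themselves lay at 0.304 for Ifit3b, 0.309 for Ifit3, 0.346 for Ifit2, 0.514 for Ifit1, 0.667 for Ifit1bl1 and 0.927 for Ifit1bl2, so that Mx2 was closer to the mean of the family than any member was. Mx2, an antiviral GTPase, was at 7.604, 7.98, 8.38 and 9.34 CPM in the Control tumors and at 158, 505, 282 and 235 CPM in the IMQNP tumors. The chemokine gene Cxcl10 went from 15.3 ± 3.78 to 664 ± 611 CPM, with IMQNP 2 at 1576 CPM.

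As a check of the labelled tissue, hepatocyte genes such as Alb (mean 10371 CPM in Control and 9401 in IMQNP tumors) were abundant, while the tumor markers Afp (5.46 and 4.79 CPM) and Gpc3 (1.23 and 1.57 CPM) were low. For plasmacytoid dendritic cells, which make interferon alpha after TLR7 stimulation, the summed level of 5 markers was 6.08 to 9.05 and 7.11 to 12.3 CPM per kb in Control and IMQNP tumors. Of these markers Siglech was at 3.67 and 1.71 CPM on average, Ccr9 at 1.34 and 1.995, Tcf4 at 144 and 214, Klk1 at 0.203 and 0.535 and Cox6a2 at 0.505 and 0.485. The groups did not overlap for Klk1, which like Cox6a2 had too few counts for the test, and overlapped for the other 4. Over 9 lists, the tested markers were 9 for hepatocytes or carcinoma, 6 for macrophages and 3 for plasmacytoid dendritic cells. There were 4 for neutrophils, 5 for T cells, 3 for NK cells, 3 for B cells, 4 for endothelial cells and 5 for fibroblasts. Of all these, 0 were called higher, and too few were tested to set this apart from the 2.26% of all tested genes. The Kupffer cell gene Vsig4 was the 1 called lower (log2 fold change -1.62, adjusted p = 0.0453, edgeR), beside 0.200% of all tested genes. Vsig4 kept its call in 1 of the 8 fits without 1 tumor, that without IMQNP 2, and the adjusted p of the others was 0.0688 to 0.124. Their part in the IFIT levels was not tested.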

How the data were processed

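RNA was sequenced from 4 Control and 4 IMQNP tumors (KAPA mRNA library). The authors deposited counts of reads per Ensembl gene without normalization, and all tests used them. A further table the authors deposited holds signal values, the counts divided by 1 DESeq2 size factor per tumor, and was used here for gene symbols and an alternative scaling. The study's methods name TopHat and HTSeq, whereas the submitters' processing notes name Trimmomatic 0.38, HISAT2 2.1.0 and featureCounts 2.0.0. The genome build and the use of strand in counting are not given in the sources used here, and all 55536 gene identifiers were found in GENCODE M21 (GRCm38).

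Counts totalled 16883911 to 27687756 per tumor, at which 3 counts are 0.105 to 0.210 normalized CPM (counting error only). The tests used edgeR 4.0.16 (TMM, filterByExpr, quasi-likelihood) in R 4.3.3, with limma 3.58.1 and DESeq2 1.42.0 as alternatives, and scipy 1.17.1 in Python 3.11.15. The main edgeR fit was tested on simulated data. Benjamini-Hochberg adjustment ran over all 15998 tested genes, or over the 15 pairs for the ratios between members. Lengths are all annotated exon bases of a gene. Promoter windows and sequences are from RefSeq (GRCm38.p6).

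The members, gene lists and most settings were chosen with earlier results of these data known. The text names all 6 members, up to 4 called genes of each pathway list with the largest changes, Ifnb1, Ifnar1, Ifnar2, Stat2, Irf9, Tlr7 and Cmtr1, the tested genes within 200 kb, and the 5 genes most like the members. Other genes named (Ifng, AC016791.2, Myd88 and cell type markers) were chosen after their values were seen. Alternatives were other normalizations, filters and tests, the adjusted p alone as the call, a prior count of 0.5, the replicate number as a block, other lengths, a stricter motif and each tumor left out in turn. Of the pathway lists, 1 gene is not reported here. No batch or date of sequencing is given.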

Additional observations from a re-analysis of the deposited data

Results flagged for a closer look

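In 13 of 66 groups of 4 tumors (33 named genes, 2 groups each), 1 tumor lay so far from the nearest other that the gap passed Dixon's limit for 4 values. Chance passes this limit in about 1 of 20 groups if the values are normally distributed. CPM without a log was used, for which that rate need not hold. In 12 of the 13 this tumor was IMQNP 2, and in each of these 12 it was the highest IMQNP tumor. The genes share tumors, so the groups are not independent.

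Of the IFIT genes, Ifit2 was at 2208 CPM in IMQNP 2, against 491 to 749 CPM in the other 3 IMQNP tumors, and Ifit1bl1 was at 322 CPM, against 59.8 to 98.0 CPM. Ifit1, Ifit3, Ifit3b and Ifit1bl2 were also highest in IMQNP 2 but were not past this limit.

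Of the pathway genes, IMQNP 2 stood apart for Irf7 at 848 CPM (others 387 to 425), Socs1 at 102 CPM (29.1 to 31.9), Myd88 at 114 CPM (55.04 to 61.3), Dhx58 at 210.2 CPM (79.6 to 94.4) and Zbp1 at 590 CPM (200.2 to 264). Ifnb1 was at 0.489 CPM in IMQNP 2, from 7 counts, and at 0.165 to 0.221 CPM in the others. Myd88, an adaptor of TLR7, lost its call without any 1 Control tumor (adjusted p from 0.0586 to 0.101, edgeR) and fell under the fold limit without IMQNP 2 (log2 fold change 0.91).

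Beside the cluster, Ch25h was at 81.6 CPM in IMQNP 2 (others 23.6 to 26.5) and Pank1 at 43.5 CPM (9.10 to 13.7). Unlike Ch25h, Pank1 was higher still in Control 4, at 64.3 CPM. Of the genes most like the cluster, Cxcl10 was at 1576 CPM in IMQNP 2 (304 to 431) and Cxcl11 at 463 CPM (69.5 to 104).

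Among the Control tumors, Ifih1 was low in Control 5 at 21.2 CPM (others 41.7 to 44.1). What sets these tumors apart was not tested.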

How the results depend on the processing

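The 6 IFIT genes stayed called higher in every alternative that tested them; Ifit1bl2 was not tested under a minimum of 10 counts in every tumor, which left 5. Log2 fold changes stayed within 4.05 to 5.23 for Ifit2, 5.09 to 5.52 for Ifit3, 5.21 to 6.65 for Ifit1bl1, 5.33 to 5.81 for Ifit3b, 3.20 to 3.99 for Ifit1bl2 and 5.71 to 6.25 for Ifit1. Of all genes, 362 were called higher and 32 lower, against 619 and 133 with DESeq2's Wald test, and 63 lower with no filter and 92 lower with edgeR's exact test. Leaving out 1 tumor gave 197 to 375 higher and 8 to 38 lower. Pathway genes called higher ranged from 11 to 15; the gain was Cmtr1. Ch25h, the 1 flanking gene called, was lost without any 1 Control tumor (0 to 1 called). Pairs of members past 0.05 numbered 0, but 9 with a prior count of 0.5 and 9, not all the same, with limma; with 3 against 4 tumors the smallest exact permutation p is 0.0571, so leaving out a tumor cannot pass a pair. The Ifit1bl1 to Ifit1 difference (-0.025) was 0.045 with a prior count of 0.5 and -0.40 to 0.52 with 1 tumor left out. In the order per length, 4 of 6 members kept their place in each group with unshared words as length, and 4 to 6 in the IMQNP group with 1 tumor left out, Ifit2 and Ifit3b trading places. The cause of these shifts was not tested.

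Both groups hold replicate numbers 1, 3 and 4, but tumors with the same number did not deviate together (correlations 0.29, -0.27 and -0.32), so the numbers were not taken as pairs. A fit with the replicate number as a block, in which Control 5 and IMQNP 2 carry no weight, called all 6 IFIT genes, 416 genes higher, 267 lower and 2 flanking genes lower (Slc16a12 and Pank1). It also called Cmtr1, lost Irf2 (log2 fold change 0.94) and Myd88 (0.95), which fell under the fold limit, and put Ifit1bl1 (5.21) below Ifit1 (5.82). limma on the ratios with that block passed 10 pairs but not Ifit3 to Ifit1 (adjusted p = 0.0673) or Ifit3b to Ifit1 (0.172), with the differences of Ifit3 to Ifit1bl1 (0.11) and Ifit1bl1 to Ifit3b (-0.25) turned in sign.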
